A study of Homo sapiens with 12 samples.

Results

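The response described here is that of HaCaT cells, an immortalised human keratinocyte line, to a stimulus labelled mix, in the presence of a control siRNA. Its members are 6 of the 12 RNA-seq libraries of the series, chosen by their labels alone: 3 Control-siRNA libraries, from cells transfected with control siRNA and given no mix, and 3 Control-siRNA+Mix libraries, from cells transfected with the same siRNA and stimulated with mix for 24 h. The other 6 libraries received siRNA against PHGDH, the first enzyme of serine synthesis, without or with the mix, and serve here only to show where the response differs. All groups share the cell line, the medium (DMEM with fetal bovine serum) and a transfection, and no untransfected group is among them. The labels do not state what the mix contains, and they do not say whether libraries with different numbers came from separate cultures, so the p-values below measure only the spread between these libraries. HaCaT is 1 line in culture without other skin cells.

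Keratinocytes form the outer barrier of the skin and are also a source of immune signals. When cytokines or microbial products reach them, the transcription factors NF-kappaB, AP-1, STAT3 and C/EBP raise chemokines that draw in neutrophils and T cells, antimicrobial proteins such as the S100 family, and inhibitors that later damp the signal. Wounded or inflamed epidermis also switches its keratins from the KRT1 and KRT10 pair of normal differentiation to KRT6, KRT16 and KRT17, and changes its contact with the basement membrane. In bulk RNA, a change in a gene's level cannot tell a change within each cell from a change in the share of cells that express it.

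Values are FPKM, that is fragments counted on a gene, scaled to the gene's length and the library's depth. A gene was tested if its mean reached 0.5 FPKM in either group, which 13888 of the 58735 genes in the table did. Of these, 775 reached it only with the mix and 709 only without it. Because the filter chose such genes by 1 group, they lean toward being higher in that group. A gene is said to have risen or fallen where the adjusted p of limma was under 0.05, and it is otherwise given by its values. Of the genes tested, 2690 passed (19.4%), 1472 rose (10.6%) and 1218 fell (8.77%). The 3 libraries of each group did not overlap at 5386 genes (38.8%), with the mix higher at 2714 (19.5%) and lower at 2672 (19.2%). Large changes were mostly rises. Among the genes that passed, 415 rose and 147 fell by more than 1 on the log2 scale, and 49 rose and 2 fell by more than 3, while the median change of all genes tested was 0.00 on that scale.

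The 6 libraries hold between 16403845 and 19026612 reads assigned to genes, and protein-coding genes took 98.0% to 98.1% of them. The first principal component held 64.8% of the variance and separated the groups. The second, with 20.8%, set the library Control-siRNA 1 apart. That library had 7.08% of its reads in mitochondrial genes, against 4.07% to 4.84% in the other 5. Leaving it out raised the count of genes that passed to 4733, and leaving out any of Control-siRNA 3 or the 3 mix libraries lowered it to between 1325 and 1404, with no change of sign among the 2690. The markers of keratinocytes summed to 2023 to 2983 FPKM without the mix and 4966 to 5402 FPKM with it. The 9 fibroblast markers summed to 6.64 to 7.43 FPKM without and 3.49 to 3.73 FPKM with the mix, and the 10 leukocyte markers to 1.73 to 2.11 and 2.55 to 3.42 FPKM, with 3 of them at 0 in all 6 libraries. The melanocyte and endothelial markers summed to no more than 1.21 and 0.975 FPKM. PHGDH, which the control siRNA does not target, had 36.5, 56.2 and 45.8 FPKM in the Control-siRNA libraries and 31.9, 31.2 and 26.6 FPKM with the mix, which do not overlap. Its log2 change of -0.59 (SE 0.17) gave an adjusted p of 0.0501, just above the threshold, so it did not pass.

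**Figure D1:**
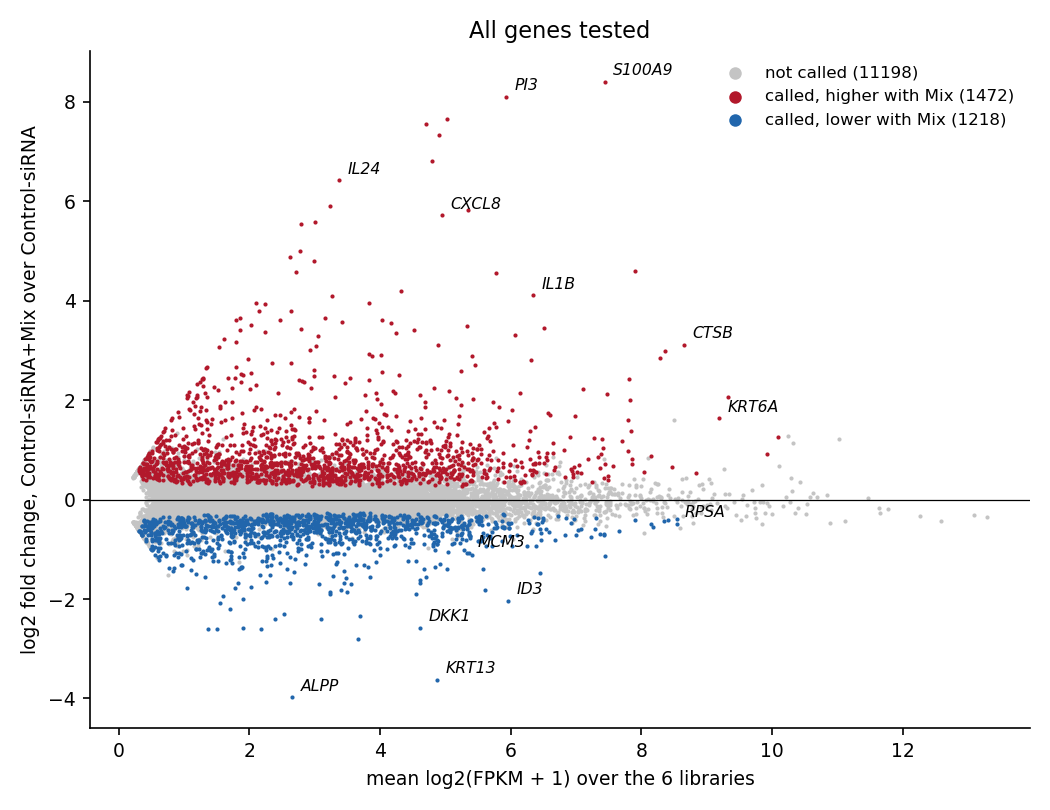
Each point is 1 of the 13888 genes tested, with its mean level over the 6 libraries on the x axis (log2 of FPKM + 1) and its change with the mix on the y axis (log2 fold change of Control-siRNA+Mix over Control-siRNA). Red and blue points are the 1472 genes that rose and the 1218 that fell, grey ones did not pass, and the rises reach further from 0 than the falls.

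On the log2(FPKM + 1) scale of the test, the largest rise was in S100A9, an antimicrobial protein of the epidermal surface. By the ratio of group means other genes with lower levels rose more, such as the cytokine gene IL24 (794-fold). S100A8 and S100A9 encode the subunits of calprotectin, which starves microbes of metals. S100A9 (ENSG00000163220, chromosome 1, 153357854 to 153361027, hg38) had 6.05, 14.5 and 6.6 FPKM without the mix and 3128, 3022 and 3434 FPKM with it, 352-fold higher (log2 change 8.41, SE 0.30, adjusted p 1.06e-05). By mean FPKM it moved from rank 4454 to rank 6 among the genes of the table. S100A8, in the same gene cluster (153390032 to 153391188) with S100A12 between them, went from 0.992, 2.06 and 0.947 to 439, 461 and 478 FPKM. Control-siRNA 2 was the highest of the unstimulated libraries for both genes and still lay more than 100 times below every mix library. Together the pair took 0.000494% to 0.00103% of all reads without the mix and 0.218% to 0.246% with it.

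The list of antimicrobial and acute-phase proteins held 25 members, of which 15 were tested, 14 rose and none fell, with a median log2 change of 3.30 against 0.00 for all genes tested. 4 of the tested members passed the level filter only through the mix libraries. S100A7 (psoriasin) rose from 1.24, 0.835 and 0.691 to 349, 331 and 395 FPKM, and S100A12, a ligand of the receptor RAGE, from 0.214, 0.216 and 0.204 to 17.7, 14.7 and 20.8 FPKM. LCN2, which binds bacterial siderophores, had 39.8, 62.4 and 42.9 FPKM without the mix and 1178, 1182 and 1143 FPKM with it (24.2-fold), so that the spread of the mix libraries was a small part of the difference. SLPI, an inhibitor of neutrophil elastase, rose 10.3-fold, from 19.6, 21 and 20.2 to 225, 196 and 205 FPKM. The acute-phase apolipoproteins SAA1 and SAA2 rose as well. SAA1 was the more variable of the 2 in unstimulated cells, with 64.4, 193 and 126 FPKM, and reached 961, 996 and 837 FPKM. Reads of near-identical copies such as SAA1 and SAA2 can be split between them by the counting. DEFB4A, which encodes beta-defensin 2, had 3 reads in the 3 unstimulated libraries together and 687 in the mix libraries, too few in the former for a fold change.

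PI3 encodes elafin, an elastase inhibitor that is built into the cornified envelope, and it rose from 1.44, 5.72 and 2.02 to 1122, 966 and 946 FPKM (331-fold, log2 change 8.10, SE 0.36), second to S100A9 on the log2(FPKM + 1) scale but below IL24, S100A7, STOM and others by the ratio of means. Here too Control-siRNA 2 was the highest of its group. PDZK1IP1, a small membrane protein, rose from 3.93, 5.83 and 3.72 to 318, 288 and 308 FPKM. STOM, a membrane protein of lipid rafts, rose from 0.173, 0.105 and 0.199 to 51.3, 51.6 and 61 FPKM, 344-fold. CYP24A1, which inactivates vitamin D, and HEPHL1, a copper-dependent ferroxidase, were near 0 without the mix. With it they had 31.8, 39.7 and 42.7 FPKM and 33.6, 39 and 52.6 FPKM.

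**Figure D2:**
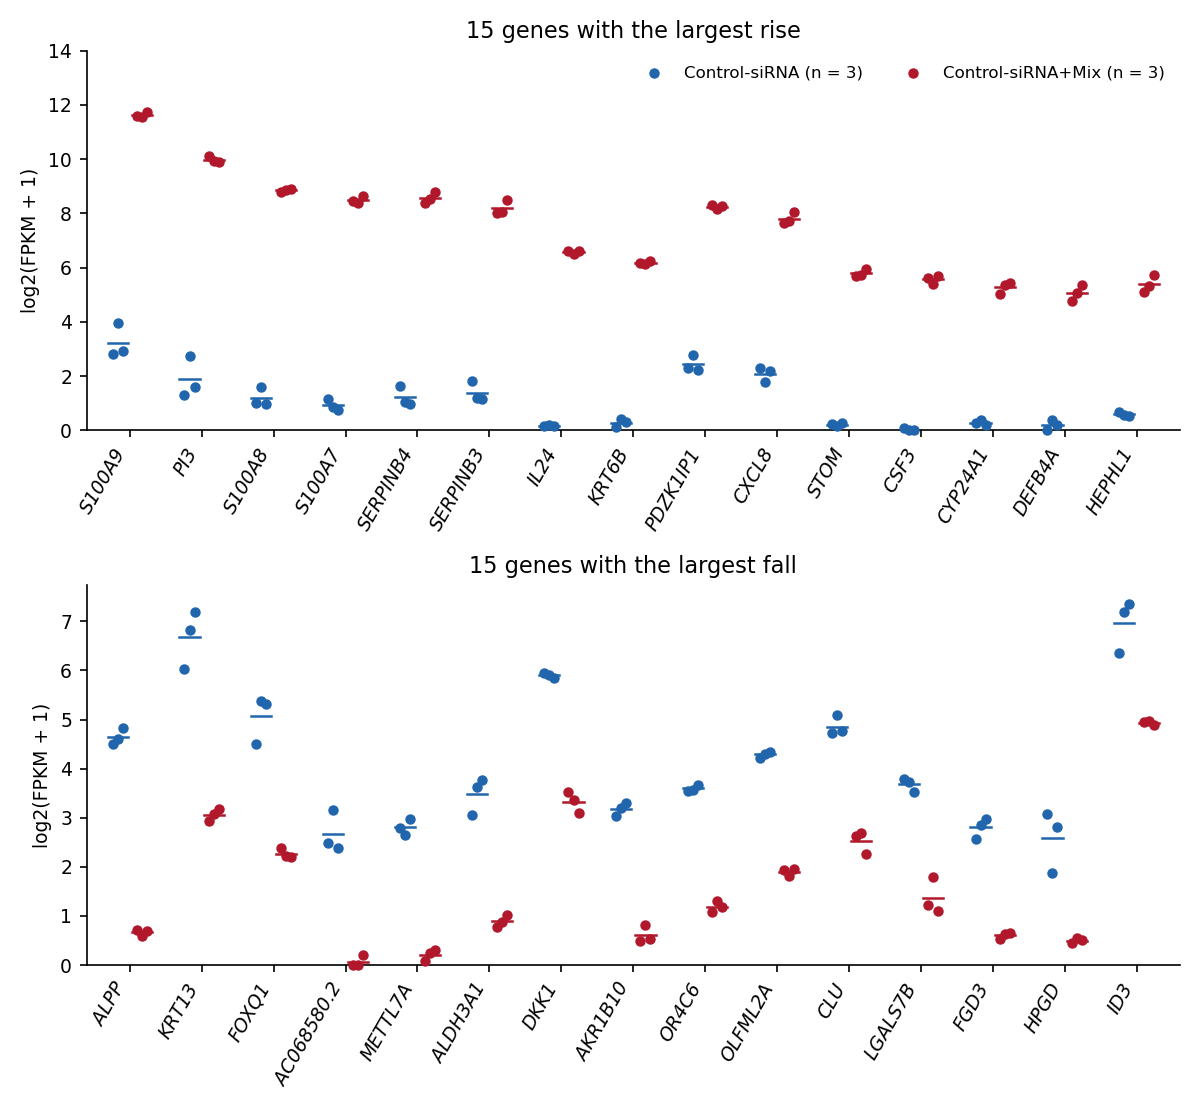
Level of each of the 15 genes with the largest rise (top) and the 15 with the largest fall (bottom) on the log2(FPKM + 1) scale, in each Control-siRNA library (blue) and each Control-siRNA+Mix library (red), with the group mean as a bar (n = 3 per group). By the rule that chose them the groups overlap at none of the 30 genes, and the unstimulated libraries of FOXQ1, HPGD, ID3 and KRT13 are spread more widely than the mix libraries.

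Chemokines guide leukocytes into tissue, and the CXC members with an ELR motif act on neutrophils. Of 18 chemokines in the list, 15 were tested, 13 rose and none fell. 6 of the 15 passed the level filter only through the mix libraries. CXCL8 rose from 3.95, 2.44 and 3.54 to 198, 211 and 264 FPKM (67.7-fold, adjusted p 6.37e-06). CXCL1 was already present without the mix, with 23.9, 31.9 and 24.8 FPKM, and reached 308, 282 and 314 FPKM, so its fold change was smaller (11.2) although its final level was the highest of the family. CXCL3 had 0.425, 0.555 and 0.477 FPKM without the mix and 9.49, 9.49 and 9.44 FPKM with it, and CXCL6 had 8.79, 5.48 and 7.73 and 42.3, 47.1 and 48.1 FPKM. Chemokines for other leukocytes rose too. CCL20, the ligand of CCR6 on T-helper 17 cells and dendritic cells, had 0.209, 0.0702 and 0.0996 FPKM without the mix and 3.35, 3.21 and 4.61 FPKM with it. CCL5, which acts on T cells and monocytes, rose 8.37-fold to 17.6, 19.1 and 19.6 FPKM.

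CXCL1, CXCL2 and CXCL3 lie in a chemokine cluster on chromosome 4, in which CXCL5 lies between CXCL1 and the other two, and their promoters are shown because they carry the same run of letters. The sequences are the 250 bases before the RefSeq start of each gene (GRCh38.p14, 5′ to 3′ in the gene's direction), in lower case, with matches to the kappaB motif, the binding pattern of NF-kappaB, in capitals. CXCL1 is chr4:73869143-73869392 on the plus strand, and CXCL2 and CXCL3 are chr4:74099196-74099445 and chr4:74038690-74038939 on the minus strand. TNFAIP3, a gene of the feedback group below, is chr6:137867009-137867258 on the plus strand.
CXCL1: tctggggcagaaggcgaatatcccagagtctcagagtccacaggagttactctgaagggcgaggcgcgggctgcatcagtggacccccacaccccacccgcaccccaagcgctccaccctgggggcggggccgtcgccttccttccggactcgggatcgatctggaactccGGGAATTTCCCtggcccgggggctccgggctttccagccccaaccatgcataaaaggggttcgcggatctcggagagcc
CXCL2: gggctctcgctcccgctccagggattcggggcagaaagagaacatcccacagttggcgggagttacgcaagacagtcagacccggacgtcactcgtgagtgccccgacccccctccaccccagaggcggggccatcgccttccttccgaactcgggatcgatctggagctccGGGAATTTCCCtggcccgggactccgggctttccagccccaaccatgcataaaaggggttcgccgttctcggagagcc
CXCL3: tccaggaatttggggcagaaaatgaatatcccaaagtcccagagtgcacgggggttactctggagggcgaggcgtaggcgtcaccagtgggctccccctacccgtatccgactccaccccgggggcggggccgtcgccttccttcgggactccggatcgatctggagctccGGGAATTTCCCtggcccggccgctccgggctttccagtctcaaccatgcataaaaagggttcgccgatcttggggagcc
TNFAIP3: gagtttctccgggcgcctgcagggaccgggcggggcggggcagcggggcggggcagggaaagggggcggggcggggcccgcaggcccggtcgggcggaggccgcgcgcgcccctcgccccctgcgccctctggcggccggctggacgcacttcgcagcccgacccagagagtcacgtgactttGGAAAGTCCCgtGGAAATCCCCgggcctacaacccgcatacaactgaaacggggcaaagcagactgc

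The 3 chemokine promoters each hold GGGAATTTCCC, in which 2 matches overlap, beginning 79 bases before the start of CXCL1 and CXCL3 and 78 before that of CXCL2. In TNFAIP3 the 2 matches are apart by 2 bases. None of the 5 other motifs searched (AP-1, STAT, C/EBP, E2F and CHR, on both strands) overlaps these matches. The kappaB motif was found in 9 of 14 chemokine promoters in the RefSeq table (64.3%) and in 9 of 26 promoters of the NF-kappaB list (34.6%), against 9.57% of all 27305 promoters of the table and 12% of the 9170 tested genes that have an entry there. It was also found in 16.5% of 261 promoters of genes that rose by more than 1 on the log2 scale, in 11.5% of 87 that fell by more than 1, and in 17.5% of 40 promoters of the replication list described below, most of whose genes fell. The AP-1 motif TGANTCA was found in 13% of those 261 promoters and in 12.6% of the 87, against 4.19% of tested genes. A match is a description of the letters and not a binding site.

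The agonists of the IL-1 receptor rose, while the change of its antagonist was small. IL1A and IL1B encode the agonists and IL1RN the antagonist. IL1B rose from 17.6, 20.8 and 17.3 to 340.2, 321 and 348 FPKM (18.1-fold) and IL1A from 14.1, 9.82 and 7.75 to 259, 259.5 and 279 FPKM (25.1-fold). IL1RN had 13.4, 12.6 and 13.7 FPKM without the mix and 11.1, 10.8 and 10.2 FPKM with it, a fall of 0.28 on the log2 scale (SE 0.08, adjusted p 0.0475) whose adjusted p reached 0.512 under the alternatives. IL36G, an agonist of the IL-36 receptor, rose from 0.442, 0.608 and 0.0384 to 33.1, 27 and 33.1 FPKM. IL37, which is known as a damping member of the family, rose from 0.529, 0.60 and 0.315 to 16.4, 14.7 and 11.9 FPKM. Of 11 members listed, 7 were tested, 4 rose and 1, IL1RN, fell. The level filter let in 2 of the 7 only through the mix libraries. No member fell with voom, plain limma or the replicate block, nor with a library other than Control-siRNA 1 left out.

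Cytokines of the IL-20 group share receptors on keratinocytes themselves, and all 3 of IL19, IL20 and IL24, neighbours on chromosome 1, rose from near 0. IL24 (206897443 to 206904139) had 0.112, 0.141 and 0.107 FPKM without the mix and 97.7, 90.5 and 98.1 FPKM with it, with the lowest adjusted p of any gene (1.97e-07). IL19 had 4 reads in the unstimulated libraries together and 11.9, 11 and 12.7 FPKM with the mix. IL20 had 1 read and 5.02, 5.24 and 6.13 FPKM. The colony-stimulating factors of neutrophils and macrophages did the same. CSF3 had 2 reads in the unstimulated libraries together and 5671 in the mix libraries, where it stood at 47.5, 41.6 and 50.5 FPKM. CSF2 rose from 1.2, 3.13 and 2.22 to 42.6, 30.3 and 35.6 FPKM. IL6 rose 8.81-fold from 1.13, 0.946 and 0.563 FPKM, and its adjusted p ranged up to 0.0601 under the alternatives. In all, 12 of 18 tested members of this list rose and none fell. Of these 18, 6 passed the level filter only through the mix libraries.

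Among tested members, receptors had a smaller median change than the ligand lists, part of whose members passed the level filter only through the mix libraries. Over all members, tested or not, the receptor median was 0.14. It was then 1.09 for chemokines, 0.73 for the other cytokines and 0.18, near that of receptors, for the IL-1 and IL-36 family. Of 20 receptors tested 8 rose and 1 fell, with a median log2 change of 0.30. IL1R2, a decoy that binds IL-1 without signalling, rose by far the most, from 0.65, 1.04 and 0.379 to 23.1, 22.1 and 20.9 FPKM (32-fold). The signalling receptor IL1R1 rose 3.42-fold from a low level, 0.658, 0.521 and 0.418 to 1.73, 1.75 and 1.99 FPKM. OSMR, the receptor chain for oncostatin M and IL-31, rose from 18.1, 14.6 and 14.2 to 45, 45.5 and 52.6 FPKM. IFNGR1, a chain of the interferon-gamma receptor, rose 3.24-fold, and IL4R and IL13RA1, which form the receptor for IL-13, rose 1.85-fold and 2.36-fold.

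NF-kappaB signalling is limited by proteins it induces. In that list 24 of 30 tested genes rose and none fell (17 to 25 rose under the alternatives), with a median log2 change of 0.95. TNFAIP3, which encodes the deubiquitinase A20, rose from 5.49, 5.04 and 4.42 to 57.4, 55 and 67.8 FPKM. NFKBIZ encodes IkappaB-zeta, a nuclear cofactor needed for many antimicrobial genes, and it rose from 2.45, 1.66 and 2.17 to 14.5, 14.9 and 15.7 FPKM. ICAM1, the adhesion ligand of leukocyte integrins, went from 2.81, 4.63 and 3.74 to 54.5, 56 and 56.5 FPKM, and SOD2, the mitochondrial superoxide dismutase, from 4.09, 3.53 and 3.43 to 81.3, 78.9 and 93 FPKM. SOD2 overlaps WTAP on the opposite strand, and reads of the pair cannot be told apart there. A second entry with the symbol SOD2 did not reach the level filter and was not tested. The adaptor TRAF1 rose 11.7-fold. BCL2A1, an inhibitor of apoptosis, had 1 read in the unstimulated libraries and 199 in the mix libraries.

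The suppressors of cytokine signalling, which shut off JAK kinases, rose at the same time. SOCS3 had 3.71, 5.16 and 4.03 FPKM without the mix and 63.4, 60.3 and 59.2 FPKM with it (14.2-fold), and SOCS1 had 1.3, 1.18 and 0.884 and 21.8, 22.5 and 21.3 FPKM (19.5-fold). SOCS2 rose 1.77-fold. Of the JAK-STAT3 list 14 of 19 tested members rose and none fell (9 to 16 rose under the alternatives). SEMA7A, a semaphorin that acts on integrins of leukocytes, rose from 3.6, 6.17 and 3.75 to 11.6, 12.5 and 11.6 FPKM.

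Of the interferon-stimulated genes, which defend cells against viruses, 16 of 39 tested rose and 1 fell, with a median log2 change of 0.42, and the number that rose ranged from 6 to 22 under the alternatives. The level filter let in 5 of the 39 only through the mix libraries. ISG15, a ubiquitin-like protein, rose from 37.1, 63 and 55 to 127, 109 and 117 FPKM, and IFIT2 from 8.34, 5.8 and 6.39 to 15.4, 17.7 and 16.3 FPKM. Of the class I antigen presentation genes 5 of 20 rose and none fell (0 to 8 under the alternatives). B2M, the light chain of class I molecules, rose 1.55-fold from 134, 127 and 133 to 202, 207 and 200.4 FPKM, and HLA-B and HLA-C, whose reads can be split between related genes, rose 1.67-fold and 1.5-fold. CD274, which encodes the checkpoint ligand PD-L1, rose 3.79-fold from 1.03, 0.885 and 1.15 to 3.56, 3.75 and 4.27 FPKM, and its relative PDCD1LG2 from 0.305, 0.473 and 0.246 to 2.35, 3.17 and 2.64 FPKM.

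The complement system marks and lyses microbes. The serine proteases that start the classical pathway, C1S and C1R, lie together on chromosome 12. C1S had 1.3, 1.34 and 1.32 FPKM without the mix and 38.2, 39.9 and 38.3 FPKM with it (29.3-fold, adjusted p 6.06e-07), and C1R had 1.26, 1.88 and 1.41 and 30.3, 31.5 and 29.6 FPKM. CFB, the protease of the alternative pathway, had 0.0888, 0.0784 and 0.159 and 4.0, 3.92 and 5.26 FPKM. CD59, which blocks the membrane attack complex, rose 2.31-fold. CLU, an inhibitor of the same complex, fell from 25.4, 33.1 and 26.2 to 5.16, 5.42 and 3.77 FPKM, 5.9-fold lower with the mix. In the list 7 of 12 tested genes rose and 2 fell.

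Of 22 enzymes listed as linked to inflammation 13 were tested, 10 rose and 2 fell. 4 of the 13 passed the level filter only through the mix libraries. The falls were in PTGS1, the constitutive cyclooxygenase (log2 change -1.12), and PTGES, a prostaglandin E synthase (-0.94). ACOD1, which makes itaconate, is listed at 0 in all 3 unstimulated libraries and had 6.96, 6.87 and 8.56 FPKM with the mix, at least 297-fold higher when the unstimulated group is set at 3 reads. PTGS2, the inducible cyclooxygenase, rose from 0.663, 0.382 and 0.552 to 6.57, 7.32 and 9.65 FPKM. HPGD, which is not in the list and degrades the prostaglandins that PTGS2 helps to make, fell from 7.43, 2.65 and 6.06 to 0.363, 0.462 and 0.418 FPKM, 13-fold lower. NAMPT and NNMT, enzymes of nicotinamide metabolism, rose 3.52-fold and 8.77-fold, the latter with adjusted p up to 0.162 under the alternatives. XDH, which makes uric acid, rose from 3.27, 3.71 and 3.24 to 11.7, 11.1 and 13.1 FPKM. CTSB, a lysosomal cysteine protease outside the list, moved from rank 295 to rank 32 by mean FPKM, with 119.7, 152 and 138 FPKM without the mix and 1227, 1176 and 1147 FPKM with it.

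**Figure D3:**
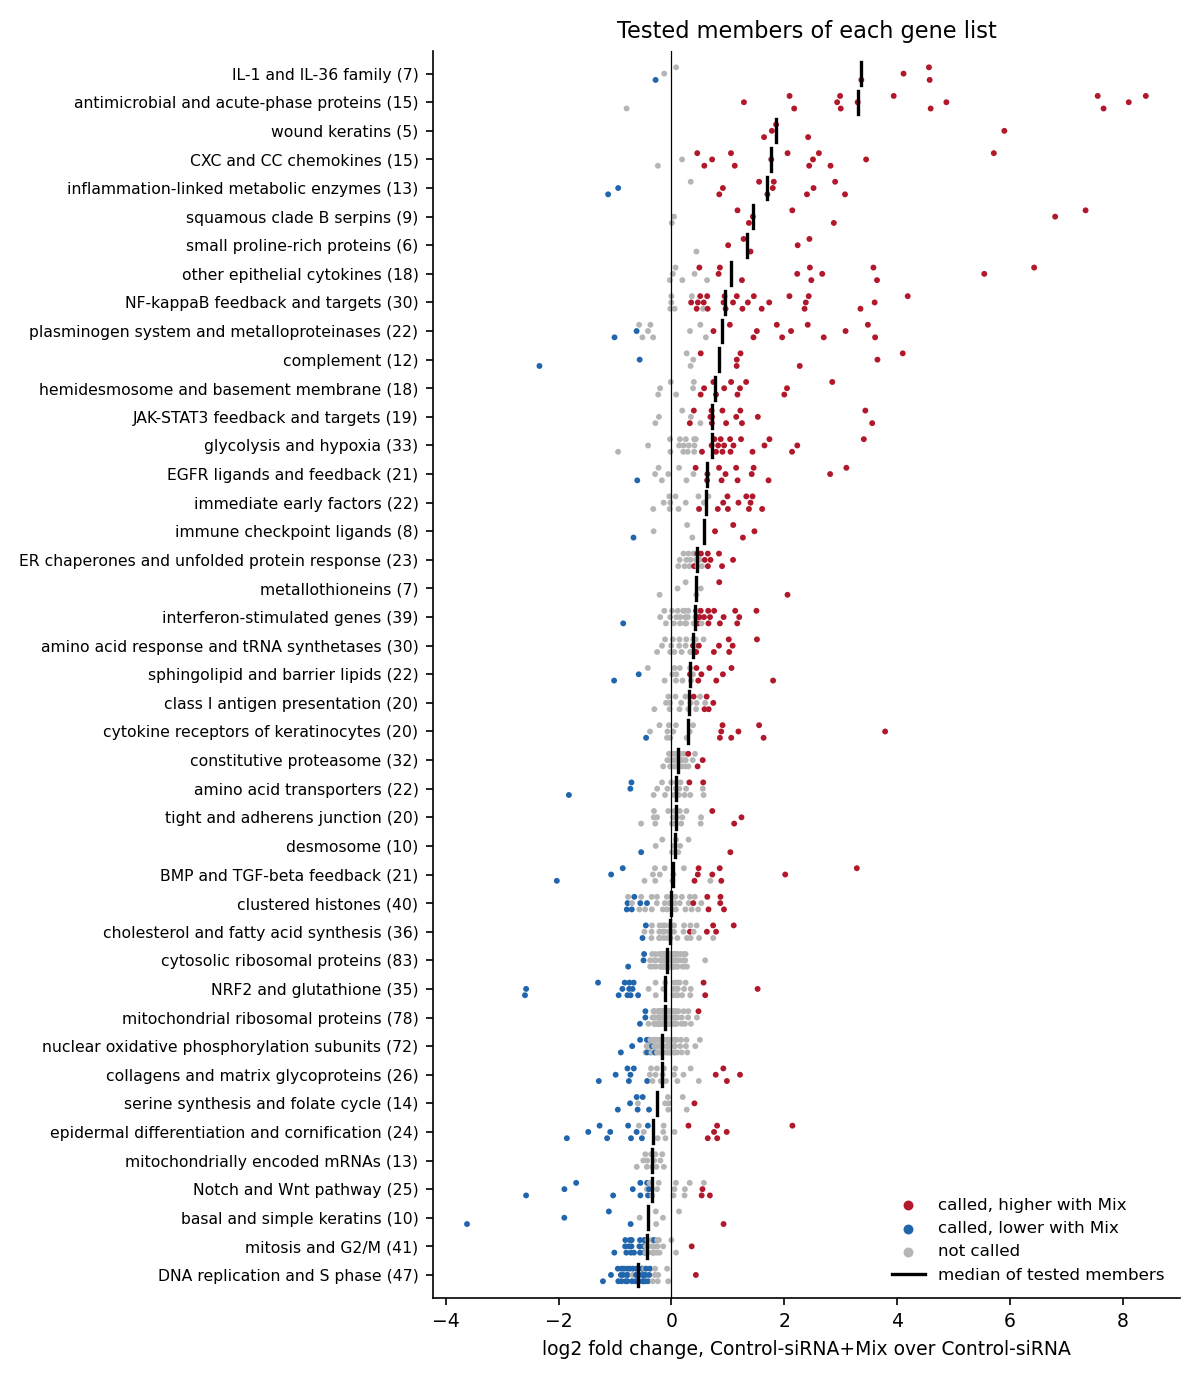
Change with the mix of every tested member of the gene lists shown, as log2 fold change of Control-siRNA+Mix over Control-siRNA, with the number of tested members in brackets and the list median as a black bar. Red members rose, blue members fell and grey ones did not pass. The medians of tested members run from 3.36 for the IL-1 and IL-36 family to -0.59 for DNA replication and S phase. Over all its members, tested or not, the IL-1 and IL-36 median was 0.18.

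The keratins of wounded epidermis rose together. KRT6A, already abundant in this line, had 281, 387 and 330.3 FPKM without the mix and 1038, 1060.1 and 994 FPKM with it (3.1-fold), while KRT6B had 0.0972, 0.343 and 0.232 and 71.8, 68.5 and 75.2 FPKM (321-fold). These copies and KRT6C are close in sequence, so the split of reads among them is uncertain. KRT16 rose 3.75-fold, from 5.02, 8.05 and 6.5 to 25, 24 and 24.4 FPKM, and KRT17 5.3-fold, from 73.2, 120.2 and 100.3 to 550.1, 500.0 and 507 FPKM. All 5 tested members of the list rose, with a share of all reads that went from between 0.117% and 0.150% to between 0.474% and 0.485%. The level filter let in 2 of the 5 only through the mix libraries.

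Other keratins moved the opposite way or little. KRT13, the keratin of internal squamous epithelia, fell from 64.8, 112 and 146 to 6.64, 7.45 and 8.06 FPKM (log2 change -3.62, SE 0.28, adjusted p 3.42e-04), with Control-siRNA 1 the lowest of its group. KRT80 fell from 38.8, 51.4 and 42.9 to 11.4, 12.6 and 9.51 FPKM, and KRT15, a keratin of basal stem cells, fell 2.25-fold. KRT14, the main basal keratin, had 527, 806 and 813 FPKM without the mix and 1383, 1339.8 and 1275 FPKM with it, a rise of 0.92 on the log2 scale that lost its call under 6 of the 15 alternatives (adjusted p up to 0.387). KRT10, a keratin of early differentiation, had 16.1, 29.4 and 25.3 and 22.8, 21.6 and 18.1 FPKM, which overlap (log2 change -0.14, SE 0.22, adjusted p 0.708). Its partner KRT1 was under 0.1 FPKM in every library and was not tested.

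Among the clade B serpins of squamous epithelia, SERPINB3 and SERPINB4 changed most. SERPINB4 had 2.12, 1.08 and 0.973 FPKM without the mix and 329.8, 367 and 446 FPKM with it (273-fold), and SERPINB3 had 2.53, 1.29 and 1.22 and 258, 267 and 357 FPKM (175-fold). They are near-identical neighbours on chromosome 18, so their reads can be split between them. SERPINB2, an inhibitor of urokinase, rose from 14, 13.5 and 16.4 to 116, 109 and 115 FPKM, and SERPINB1, an inhibitor of neutrophil proteases, from 30.7, 34.4 and 33.4 to 146, 143 and 155 FPKM. In all 7 of 9 tested members rose and none fell.

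Genes of the cornified envelope did not move as a block. Of 44 listed members 24 were tested, 7 rose and 10 fell, with a median log2 change of -0.33. The falls numbered 6 without Control-siRNA 3, 7 without any 1 mix library and 15 without Control-siRNA 1, and over all alternatives they ran from 5 to 15 and the rises from 2 to 7. TGM1, the transglutaminase that cross-links the envelope, rose from 1.25, 1.78 and 1.77 to 10.3, 9.8 and 11.2 FPKM, with adjusted p up to 0.111 under the alternatives. IVL, its substrate involucrin, fell from 2.76, 4.57 and 5.6 to 1.44, 1.09 and 0.927 FPKM. Among kallikreins, proteases that shed surface cells, KLK5 fell from 117, 164 and 158 to 56.1, 54.6 and 44.4 FPKM and KLK6 from 13.6, 19.4 and 17.9 to 4.24, 4.07 and 3.51 FPKM, with adjusted p up to 0.208 and 0.0549 under the alternatives. The small proline-rich proteins, which are also envelope parts but are induced by stress, went up in 5 of 6 tested members, or 3 in the fit over all 12 libraries. 2 of the 6 passed the level filter only through the mix libraries. SPRR1B rose from 3.93, 4.87 and 3.24 to 27.9, 24.4 and 26.1 FPKM and SPRR2A from 0.235, 0.473 and 0.97 to 6.4, 5.76 and 6.52 FPKM.

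Chains of laminin-332, which anchors basal keratinocytes to the basement membrane, rose. LAMB3 had 98, 128 and 115 FPKM without the mix and 472, 449.6 and 442 FPKM with it (4.0-fold), and LAMA3 had 19.3, 15.4 and 15.5 and 66.8, 69.5 and 80.1 FPKM (4.31-fold). COL17A1, the hemidesmosomal collagen, rose 2.33-fold, and ITGA3, a laminin receptor chain, rose 1.68-fold. Of 18 hemidesmosome and basement membrane genes 12 rose and none fell (7 to 13 rose under the alternatives). For contacts between cells, 1 of 10 tested desmosome genes rose and 1 fell, and 3 of 20 tight and adherens junction genes rose, or 5 without Control-siRNA 1 and 1 or 2 without Control-siRNA 3 or any 1 mix library. Rises were 10% of the desmosome and 15% of the junction genes, near the 10.6% of all genes tested. Falls were 10% and 0%, against 8.77% of all genes tested. CDH3, the P-cadherin of basal cells, rose 2.37-fold, from 88.3, 111 and 102 to 233, 242 and 237 FPKM.

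Proteases that cut matrix rose with the laminins. MMP1, the interstitial collagenase, had 11.3, 8.86 and 13.2 FPKM without the mix and 132, 127 and 139.9 FPKM with it. MMP9, a gelatinase, had 1.9, 2.04 and 1.43 and 23.1, 23.5 and 21 FPKM, and MMP10, a stromelysin, had 0.536, 0.636 and 0.602 and 18, 17.1 and 20.3 FPKM. PLAU, the plasminogen activator urokinase, rose from 76.1, 98.3 and 79.4 to 399, 358 and 351 FPKM. Of this list 12 of 22 tested genes rose and 2 fell. The collagens and matrix glycoproteins showed 4 rises and 7 falls among 26 tested genes, with 11 falls without Control-siRNA 1. The rises were 15.4% and the falls 26.9% of this list, against 10.6% and 8.77% of all genes tested.

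Keratinocytes use ligands of the EGF receptor to drive their own migration and growth, and 5 of the 6 listed rose, all but BTC. HBEGF had 9.31, 9.64 and 8.33 FPKM without the mix and 93.4, 80.2 and 83.1 FPKM with it, AREG had 27.3, 37.6 and 23.9 and 233, 203 and 197 FPKM, and TGFA had 16.2, 13.8 and 14.6 and 41.1, 39.6 and 43.6 FPKM. Adjusted p for AREG ranged up to 0.115 under the alternatives. Inhibitors induced by the same pathway rose too, with ERRFI1, which binds the receptor kinase, up 3.58-fold and the ERK phosphatase DUSP6 up 2.3-fold. In this list 13 of 21 tested genes rose and 1 fell (8 to 14 rose under the alternatives). Among immediate early factors 11 of 22 rose and none fell (5 to 13 rose under the alternatives), and BHLHE40, a repressor of the circadian clock, rose 3.15-fold.

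In the TGF-beta and BMP families the ligand INHBA, a chain of activin A, rose from 1.92, 1.67 and 1.4 to 21.6, 23.4 and 30.4 FPKM (15.1-fold), and its soluble antagonist FST rose from 23.6, 22.2 and 16.2 to 90.2, 82.7 and 83.9 FPKM. In the same list ID3, an inhibitor of basic helix-loop-helix factors, had 80.8, 145 and 164 FPKM without the mix and 29.96, 30.4 and 28.7 FPKM with it, with Control-siRNA 1 the lowest of its group, and SMAD6, an inhibitory SMAD, had 1.13, 1.32 and 1.5 and 0.134, 0.0572 and 0.117 FPKM. ID1, a relative of ID3 and likewise a known BMP target, had 325, 441 and 467 and 323, 309 and 339 FPKM, which overlap, and did not pass (log2 change -0.33, adjusted p 0.208). The list as a whole held 8 rises and 3 falls among 21 tested genes, with a median log2 change of 0.04. The rises numbered 4 without Control-siRNA 3 or any 1 mix library and ran from 3 to 9 over all alternatives.

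Of 37 Notch and Wnt genes listed 25 were tested, 10 fell and 3 rose. Without Control-siRNA 3 or any 1 mix library 6 fell and 1 rose, and over all alternatives the falls ran from 4 to 12 and the rises from 0 to 4. The ligand WNT10A fell from 40.2, 44 and 43.9 to 13, 12.8 and 12 FPKM and the secreted Wnt antagonist DKK1 from 60.8, 59 and 56.8 to 10.5, 9.35 and 7.52 FPKM. LFNG, a glycosyltransferase that tunes Notch receptors, fell 4.51-fold. NOTCH1 itself had 16.6, 16.1 and 16.5 FPKM without the mix and 10.7, 10.9 and 11.1 FPKM with it, a fall of 0.55 on the log2 scale with adjusted p up to 0.268 under the alternatives.

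On the log2(FPKM + 1) scale the largest fall was in ALPP, the placental alkaline phosphatase, from 21.5, 23.4 and 27.2 to 0.638, 0.516 and 0.618 FPKM (40.7-fold lower, log2 change -3.97, SE 0.11). FOXQ1, a forkhead transcription factor, fell from 21.8, 40.4 and 38.8 to 4.2, 3.65 and 3.62 FPKM. METTL7A, a methyltransferase of the endoplasmic reticulum, fell from 5.95, 5.3 and 6.83 to 0.0562, 0.187 and 0.232 FPKM. FGD3, an exchange factor for CDC42, fell 11.6-fold and OLFML2A, a secreted olfactomedin-domain protein, 6.83-fold. The lincRNA AC068580.2 (chromosome 11, 1776930 to 1778388) had 4.59, 7.94 and 4.23 FPKM without the mix and was listed at 0 in 2 of the 3 mix libraries, so that by the ratio of means it fell further than ALPP. OR4C6, which is annotated as an olfactory receptor, had 10.8, 10.8 and 11.8 FPKM without the mix and 1.13, 1.46 and 1.27 FPKM with it. LGALS7B, which has a near-identical copy in LGALS7, had 12.7, 12.2 and 10.5 and 1.34, 2.45 and 1.14 FPKM.

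Targets of NRF2, the factor that answers oxidative and electrophilic stress, were among the falls. AKR1B10, an aldo-keto reductase, went from 7.22, 8.21 and 8.89 to 0.395, 0.749 and 0.452 FPKM (15.2-fold lower), and ALDH3A1, an aldehyde dehydrogenase, from 7.34, 11.3 and 12.6 to 0.703, 0.833 and 1.03 FPKM. GSR, glutathione reductase, had 47.1, 50.1 and 51.6 FPKM without the mix and 26.8, 26.5 and 26.8 FPKM with it. In the list 13 of 35 tested genes fell and 3 rose, with a median log2 change of -0.11 and 8 to 15 falls under the alternatives. MT2A, a metal-binding metallothionein, rose from 274, 374 and 297 to 1377, 1292 and 1244 FPKM, and MT1X rose 2.03-fold.

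Glycolysis and hypoxia genes rose in 18 of 33 tested members and none fell. ANGPTL4, a secreted inhibitor of lipoprotein lipase, had 5.36, 7.84 and 5.18 FPKM without the mix and 75.2, 63.8 and 83.5 FPKM with it. HK2, a hexokinase that starts glycolysis, rose from 7.26, 8.17 and 6.91 to 21, 20.9 and 23.7 FPKM, and the glucose transporter SLC2A3 rose 2.97-fold. NDRG1, a hypoxia-induced gene, rose from 50.3, 78.1 and 62.1 to 288, 272 and 334 FPKM, and BNIP3, a receptor for mitophagy, 4.82-fold. Of the nuclear subunits of oxidative phosphorylation 9 of 72 tested fell (12.5%) and none rose, a share near the 8.77% of all genes tested that fell. This count was 31 without Control-siRNA 1, the library with the highest mitochondrial share, 2 or 3 without Control-siRNA 3 or any 1 mix library and 1 with the replicate number as a block, and the part of that library's share in the result was not tested. ATP5F1A, a subunit of ATP synthase, fell from 71, 70.1 and 72.8 to 49.9, 48.4 and 46.5 FPKM. None of the 13 mitochondrially encoded mRNAs passed, although all 13 were lower with the mix (median log2 change -0.34). Without Control-siRNA 1 their median was -0.21 and 3 fell. It was -0.19 after quantile normalization, and voom and plain limma each called 2 falls.

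Serine and folate enzymes, the pathway that PHGDH opens, showed 6 falls and 1 rise among 14 tested genes. Only 1 or 2 fell without Control-siRNA 3 or any 1 mix library, and 2 with the replicate number as a block. MTHFD1, a cytosolic folate enzyme, had 18.2, 18.7 and 19.4 FPKM without the mix and 11, 10.9 and 10.8 FPKM with it. PSAT1, the enzyme after PHGDH, had 190.1, 187 and 160.4 and 173, 172 and 173 FPKM, which overlap (log2 change -0.05, SE 0.11, adjusted p 0.803). SHMT1 fell 1.61-fold and PSPH, the last enzyme of serine synthesis, 1.33-fold, with adjusted p up to 0.597 under the alternatives for the latter. Asparagine synthetase, ASNS, was under 0.5 FPKM in every library and was not tested. Of the wider amino acid response and tRNA synthetase list 11 of 30 tested genes rose, a number that ranged from 1 to 17 under the alternatives. WARS, the tryptophan tRNA synthetase, which interferon gamma also induces, rose 2.06-fold, from 31, 31.7 and 28.5 to 64.7, 61.4 and 61.4 FPKM.

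Genes of cholesterol and fatty acid synthesis as a group stayed near 0 in the median (log2 change -0.02), with 5 rises and 2 falls among 36 tested (3 to 8 rises and 0 to 5 falls under the alternatives). The rises were 13.9% and the falls 5.56% of this list, against 10.6% and 8.77% of all genes tested. MSMO1, a sterol oxidase, rose from 51.2, 40.7 and 39.5 to 93.2, 99.1 and 91.8 FPKM. In the barrier lipid list ALOXE3, an epidermal lipoxygenase, rose from 0.251, 0.431 and 0.366 to 3.8, 3.46 and 3.84 FPKM, and SPTLC3, a subunit of serine palmitoyltransferase, fell from 3.3, 2.48 and 2.53 to 0.768, 0.926 and 0.875 FPKM. UGCG, which makes glucosylceramide, rose 2.16-fold. All 23 chaperones and other genes of the unfolded protein response were higher with the mix and 10 of them passed (4 to 17 under the alternatives). XBP1, a transcription factor of that response, rose from 37.4, 36.7 and 34.8 to 73.5, 65.5 and 66.6 FPKM. SLC1A3, a glutamate and aspartate transporter, fell from 23.1, 15.6 and 18.5 to 4.55, 5.05 and 4.32 FPKM.

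Most genes of DNA replication fell. All 47 listed genes were tested, 37 fell and 1 rose, with a median log2 change of -0.59, and the number that fell ranged from 19 to 41 under the alternatives. MCM3, a subunit of the replicative helicase, had 55.8, 59.3 and 60.8 FPKM without the mix and 28.7, 27.8 and 25.7 FPKM with it (2.14-fold lower, adjusted p 3.98e-04). RFC2, which loads the sliding clamp, had 37.2, 39.1 and 36.1 and 19.2, 19.7 and 20.02 FPKM, and ORC1, of the origin recognition complex, had 15.9, 15.3 and 15.5 and 8.11, 8.69 and 7.15 FPKM. E2F2, a transcription factor of S phase, fell most of those named, from 3.39, 3.96 and 4.65 to 1.09, 1.18 and 1.16 FPKM. The falls were smaller than the rises above, but the groups did not overlap at 43 of the 47 genes in this direction, against 19.2% of all genes tested.

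Mitosis genes fell with a smaller median. Of 41 tested 19 fell and 1 rose, with a median log2 change of -0.42. The falls numbered 11 or 12 without Control-siRNA 3 or any 1 mix library and 10 with the replicate number as a block. KIF20A, a kinesin of cytokinesis, had 52.7, 52.2 and 58.1 FPKM without the mix and 25.8, 27.4 and 26.1 FPKM with it. FOXM1, the transcription factor of G2 and M phase genes, had 46.3, 46.2 and 46.6 and 26, 26.8 and 25.8 FPKM. CCNB1, the mitotic cyclin, had 159.7, 163 and 165 and 98.9, 100.2 and 96.1 FPKM, and its relative CCNB2 had 51.9, 54.2 and 52.6 and 32.2, 30.2 and 31.7 FPKM. CDKN1A, the p21 inhibitor of cyclin-dependent kinases, rose 3.28-fold, from 44.7, 58.3 and 56.1 to 179, 172 and 171 FPKM. The abundant genes TUBB, TUBA1B, PTMA and CKS2 also fell, and CKS2, a partner of cyclin-dependent kinases, went from 299, 394 and 357 to 244, 236 and 233 FPKM.

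The promoters of MCM3 and CCNB2 are shown as the examples for the 2 cell cycle lists, with the E2F motif TTTNNCGC in capitals in the former and the CHR motif TTTGAA, the cell cycle homology region, in the latter. Both are the 250 bases before the RefSeq start in GRCh38.p14, MCM3 at chr6:52284743-52284992 on the minus strand and CCNB2 at chr15:59104896-59105145 on the plus strand.
MCM3: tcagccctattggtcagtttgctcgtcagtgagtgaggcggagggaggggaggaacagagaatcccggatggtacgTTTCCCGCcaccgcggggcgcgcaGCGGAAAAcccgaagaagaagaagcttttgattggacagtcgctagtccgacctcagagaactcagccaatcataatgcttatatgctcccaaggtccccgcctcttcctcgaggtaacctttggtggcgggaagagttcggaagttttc
CCNB2: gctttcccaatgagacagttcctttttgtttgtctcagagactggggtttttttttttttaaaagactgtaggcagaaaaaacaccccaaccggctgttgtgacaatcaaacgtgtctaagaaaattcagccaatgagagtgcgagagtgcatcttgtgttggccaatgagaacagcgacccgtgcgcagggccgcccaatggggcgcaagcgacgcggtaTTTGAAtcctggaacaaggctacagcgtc

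MCM3 holds 2 E2F matches, at 174 and 150 bases before the start, the latter on the other strand, and CCNB2 holds 1 CHR match at 29 bases before it. No other motif searched overlaps them. The E2F motif was found in 45% of 40 promoters of the replication list, against 2.86% of 35 promoters of the mitosis list and 9.27% of tested genes. The CHR motif was found in 54.3% of the mitosis promoters, against 2.5% of the replication promoters and 8.14% of tested genes.

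Few ribosomal protein genes passed, and proteasome genes rose at about the share of all genes tested. Of 83 tested cytosolic ribosomal protein genes 3 fell and none rose, but 29 fell without Control-siRNA 1 and 25 after quantile normalization, with list medians from -0.26 to 0.05. RPSA had 404, 472 and 444 FPKM without the mix and 325, 313 and 304 FPKM with it. Of the mitochondrial ribosomal protein genes 3 of 78 fell and 1 rose, and of the proteasome genes 3 of 32 rose. The falls were 3.61% of the cytosolic and 3.85% of the mitochondrial list, against 8.77% of all genes tested. The proteasome rises were 9.38%, near the 10.6% of all genes tested that rose. Without Control-siRNA 1 there were 22 falls of mitochondrial ribosomal protein genes and 7 rises of proteasome genes.

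The same mix was given to cells with PHGDH siRNA, a comparison that shares no library with the present one. Of the 2690 genes that passed here, 2661 (98.9%) changed in the same direction there. No gene passed the test of the difference between the 2 responses in limma (0% of 13888, lowest adjusted p 1.00). In that test 229 had an unadjusted p under 0.05, a smaller share than the 0.05 that would be reached with no difference at any gene. Voom on the recovered reads also called 0, and limma without the filter on low values called 3. The PHGDH-siRNA and PHGDH-siRNA+Mix libraries numbered 2 were known beforehand to deviate together. Their spread enters this test of the difference, and limma without that pair called 0. The median gene's 95% interval for that difference, from limma's moderated t distribution, reached 0.58 on the log2 scale to either side, so a difference smaller than that lay within the interval of a typical gene. The estimates for several chemokines were lower under PHGDH siRNA without passing that test. CXCL8 had a log2 change of 3.74 there against 5.71 here, a difference of -1.97 (95% interval -3.55 to -0.39), CXCL1 one of 1.71 against 3.45 (difference -1.74, interval -2.54 to -0.94) and CXCL6 one of 1.09 against 2.51 (difference -1.42, interval -2.22 to -0.62). These 3 intervals are for single genes and do not allow for the 13888 tests. For CXCL8 the arms differed most without the mix, with a mean of 11.6 FPKM under PHGDH siRNA against 3.31 FPKM under control siRNA. With the mix the means were 167 and 224 FPKM, so its smaller change there goes with a higher starting level. ACOD1 had 1.81 against 3.08 (difference -1.26, interval -1.73 to -0.80). IL36G, IL24 and S100A9 differed by 0.07, 0.35 and -0.68, with intervals that include 0. Lower estimates were not confined to chemokines and ACOD1. S100A7 differed by -1.20 (interval -1.85 to -0.56), CSF3 by -0.72 (-1.30 to -0.13) and KRT6B by -1.01 (-2.01 to -0.02). These intervals likewise do not allow for the 13888 tests.

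**Figure D4:**
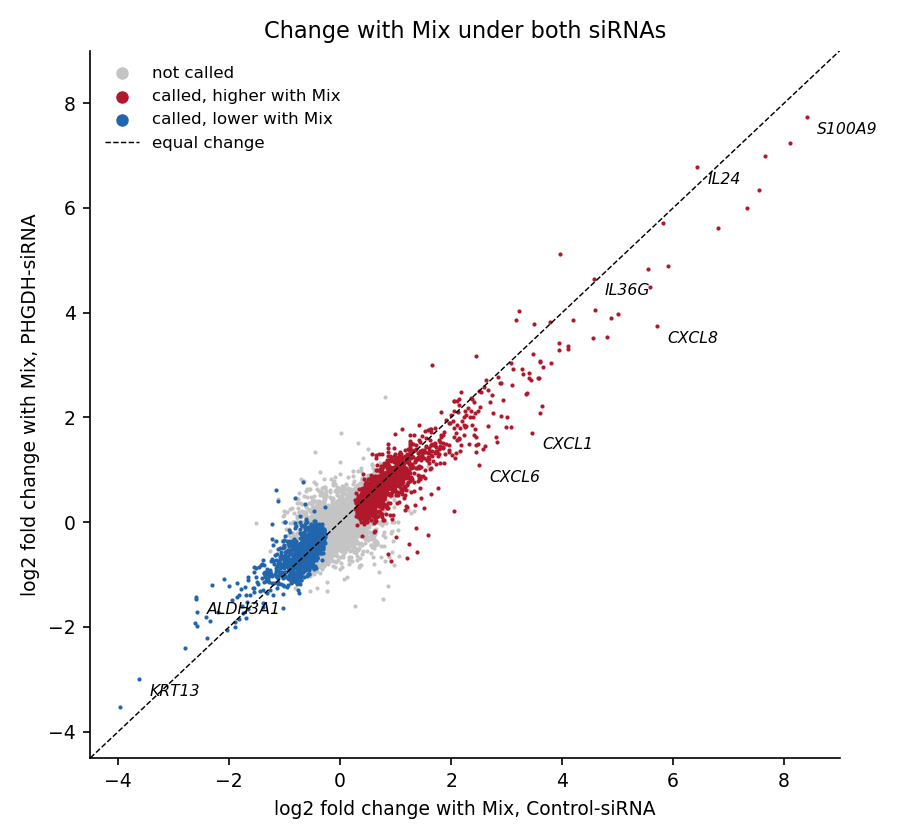
Change with the mix in cells with control siRNA (x axis) against that in cells with PHGDH siRNA (y axis), as log2 fold change, for the 13888 genes tested, with the dashed line marking equal change. Genes that rose or fell with the mix under control siRNA are red or blue; most lie near the line, and CXCL8, CXCL1 and CXCL6 lie below it, although no gene passed the test of the difference.

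**Figure D5:**
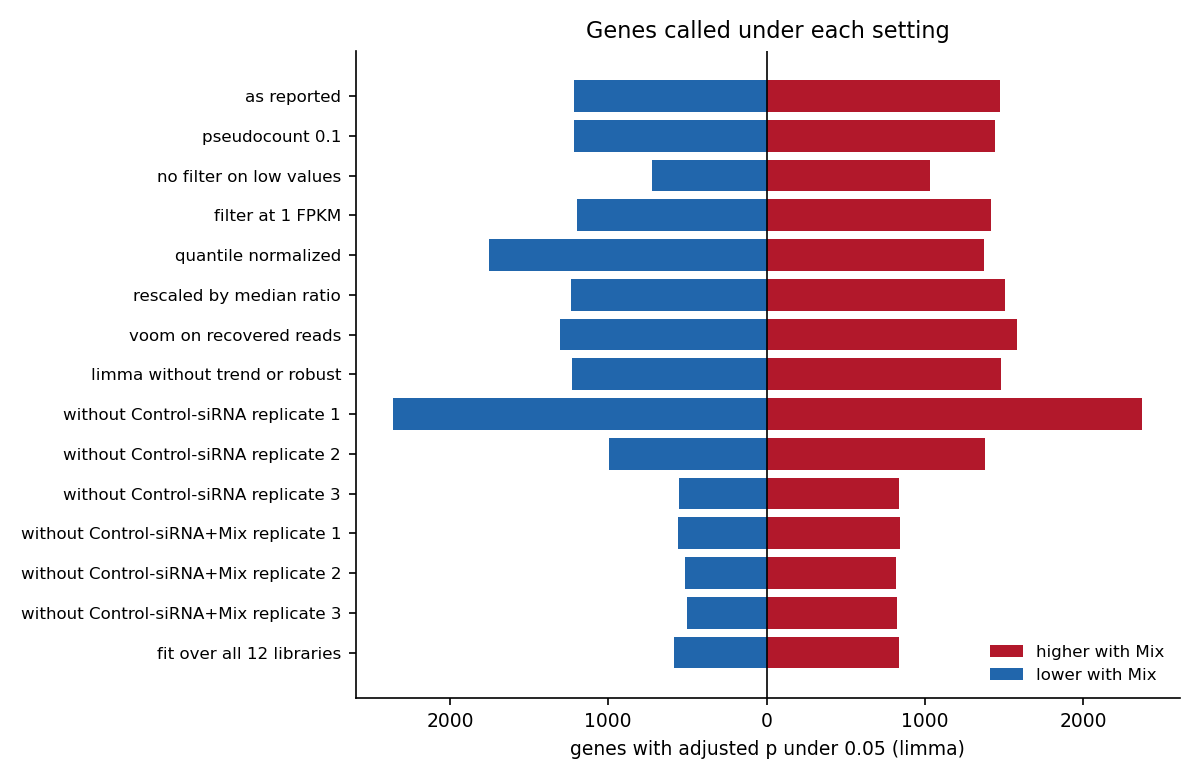
Genes with an adjusted p under 0.05 in limma, counted to the right of 0 where they rose and to the left where they fell, as reported (top) and under 14 other settings. The counts are largest without Control-siRNA 1 (2374 rises and 2359 falls), and lie between 817 and 843 rises and between 500 and 561 falls without Control-siRNA 3 or any 1 mix library.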

How the data were processed

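Per the labels, RNA was extracted with RNAiso Plus and libraries were made with the NEBNext Ultra RNA Library Prep Kit, which is not stated to keep strand. The authors deposited 1 table of FPKM values for 58735 genes in 12 libraries, and per the submitters' processing notes CASAVA, HISAT2 2.0.5, featureCounts 1.5.0-p3 and the build hg38 were used, with no roles given. Gene IDs matched GENCODE 29, with the same coordinates for 58724. Dividing FPKM by the value of 1 read gave whole reads (within 0.05 of an integer) for 100% of the low values (under 200 reads) in each library.

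Samples were grouped by the labels. FPKM was tested as log2(FPKM + 1) in limma 3.58.1 (R 4.3.3; trend and robust, two-sided, Benjamini-Hochberg over 13888 genes) on the 6 control-siRNA libraries; the difference between the 2 mix responses was tested over all 12 libraries. Fold changes in words are ratios of mean FPKM, and log2 changes are on the log2(FPKM + 1) scale, which understates the change of low genes. With 3 libraries a group, the smallest p an exact permutation test allows is 0.1, so none is given. The method was also run on simulated counts in which no library deviated from its group. That run does not cover a library set apart as Control-siRNA 1 was. Without strand, reads of overlapping genes on opposite strands cannot be told apart.

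The comparison and the gene lists were chosen with earlier results of these data known. Genes named were the 15 largest changes in each direction among genes that passed, had a mean of 1 FPKM or more and did not overlap between groups, up to 6 genes that passed per list, the 5 with the highest level in each direction, and a panel of 23 genes. ID1, PTGS1, PTGES and BTC, outside this rule, were chosen after their values were seen. Some genes that the rule names are not reported here. Promoters are from RefSeq (GRCh38.p14), and 188 of 261 named genes had one. The alternatives were another pseudocount, other filters, 2 other scalings, voom on the recovered reads, plain limma, the replicate number as a block, each library left out, and a fit over all 12 libraries.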

Additional observations from a re-analysis of the deposited data

How the results depend on the processing

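The count of 2690 genes depends on the settings. It was 1759 with no filter on low values (726 of them falls), 1419 in the fit over all 12 libraries (836 rises, 583 falls), and with each library left out it ran from 1325 to 4733, rises from 817 to 2374 and falls from 500 to 2359, the highest without Control-siRNA 1. Under the other settings, apart from the replicate block, it lay between 2612 and 3130. Quantile normalization changed the balance, with 43.9% of its calls being rises against 54.7% in the reported fit. No gene among the 2690 changed sign under any of the 15 alternatives, 849 passed under all of them (532 rises, 317 falls), and of 256 named genes that passed 166 did so under all. The cause of these shifts was not tested.

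Deviations of same-numbered libraries correlated at -0.30, 0.05 and -0.12, and those of differently numbered ones ran from -0.35 to 0.36. With 3 libraries a group, these values cannot decide whether the replicate numbers pair the samples. With the replicate block 1313 genes passed, 808 rises and 505 falls, in a fit with fewer residual degrees of freedom. The test of the difference between the 2 mix responses gave 0 genes in every setting except no filter on low values, where it gave 3.

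PHGDH, at -0.59, passed with a pseudocount of 0.1 (-0.61), a filter at 1 FPKM (-0.59), quantile normalization (-0.64), rescaling by the median ratio (-0.59) and voom (-0.61), and with libraries left out it ran from -0.75 to -0.44. KRT10, not called, ran from -0.38 to 0.036 with libraries left out and was above 0 only without Control-siRNA 2. Depth limits genes with few reads in 1 group. No fold change is given for DEFB4A, IL19, IL20, CSF3 and BCL2A1, and that of ACOD1 is a lower bound. The ratios given for IL24, STOM and KRT6B rest on 13, 28 and 28 reads in the unstimulated libraries together and are imprecise.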

Other observations

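Families of transcription factors, as the deposited table annotates them, moved unevenly. They were chosen for mention after their values were seen. Of 849 annotated factors tested, 82 rose and 73 fell (18.3%). Of the 4 C/EBP factors tested, which drive acute-phase and differentiation genes, 3 rose and 1 fell. CEBPD had 21.1, 39.6 and 33.7 FPKM without the mix and 100.1, 83.2 and 87.5 FPKM with it, and CEBPB had 57.4, 104 and 74.9 and 220.3, 168 and 167 FPKM. CEBPA had 4.62, 7.51 and 8.21 and 1.72, 2.11 and 1.18 FPKM and fell. TP63, the master factor of basal keratinocytes, rose from 35.1, 24.7 and 30.2 to 52, 56.9 and 65 FPKM. Its relative TP73 fell from 1.54, 1.93 and 2.07 to 0.314, 0.306 and 0.357 FPKM.

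Of 7 Rel family genes tested 4 rose (NFKB1, NFKB2, RELA and RELB) and none fell, and NFKB2 went from 15.8, 26.8 and 19.8 to 52.4, 51 and 47 FPKM. Of 36 bZIP factors, the class of AP-1, 14 rose and 2 fell, and of 17 ETS factors 6 rose and none fell. ETS1 had 7.05, 6.33 and 6.13 FPKM without the mix and 20.7, 21.1 and 24.3 FPKM with it. Of 64 homeobox genes 4 rose and 15 fell, and of 21 forkhead genes 1 rose and 7 fell. DLX3, which drives terminal differentiation of keratinocytes, fell from 3.68, 4.08 and 4.62 to 2.24, 1.72 and 1.61 FPKM, and HOXC13, a factor of hair keratins, from 11.2, 11.2 and 13.4 to 5.12, 4.67 and 4.7 FPKM. Of 348 zinc finger genes of the C2H2 class 14 rose and 11 fell (7.18%).

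Of 502 lincRNAs tested 65 rose and 46 fell (22.1%), against 21.2% of 11109 protein-coding genes, and of 642 genes annotated as antisense 53 rose and 39 fell (14.3%). Without strand information, reads of an antisense gene cannot be told from those of its partner.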
